A study of Homo sapiens with 12 samples.

Results

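The effect on RNA of adding tretinoin to vemurafenib, an inhibitor of the mutant BRAF kinase, was read by setting the 3 combination samples against the 3 samples given vemurafenib alone, which are 6 of the 12 samples sequenced. All samples were A375 cells, an established human melanoma line with mutant BRAF, harvested 8 h after treatment. The 4 groups of 3 samples received DMSO vehicle, tretinoin, vemurafenib, or both drugs together, and the labels give 5 µM as the dose throughout, even for the vehicle. The labels do not say whether each drug of the pair was given at the full dose. A single cell line, dose and time point were measured, so values here describe RNA levels early after treatment in that line. The p-values rest on the spread between the 3 samples of a group, estimated over all 4 groups together. The sample titles number the replicates and do not say whether each was a separate drug treatment. The comparison was made over 16740 genes with enough counts, and its samples were taken by their labels, with no measured value in the rule.

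Tretinoin (all-trans retinoic acid) is a ligand of the retinoic acid receptors RARA, RARB and RARG. These receptors sit on DNA as pairs with the retinoid X receptors RXRA, RXRB and RXRG, hold corepressors without ligand and recruit coactivators with it. Their best known site, the retinoic acid response element, is a direct repeat of a short core motif with 5 bases between the copies. Known targets include RARB itself, the enzymes that remove retinoic acid, and HOX genes, which give cells positional identity in the embryo. RXR also pairs with the oxysterol receptors (LXR) and the fatty acid receptors (PPAR). In melanocytes and melanoma cells retinoids are known for slowing growth and promoting differentiation.

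The response element of RARB is shown because RARB rose and held one of the few matches found. The 80 bases before its annotated start, at chr3:25428183-25428262 on the plus strand of GRCh38.p14 and taken from RefSeq, hold a pair of core motifs that begins 53 bases before the start, with the motifs in capitals:
RARB: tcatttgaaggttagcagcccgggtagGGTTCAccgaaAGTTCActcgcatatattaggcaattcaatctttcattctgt
The search covered both strands of windows from 250 bases before to 50 bases after each start for direct repeats with 5 bases between 2 core motifs. Each motif could read AGGTCA or, as a variant, AGTTCA, while GGGTCA was also allowed and so was GGTTCA, and no further motif was searched. Of 267 genes that rose in the combination and had such a window, 2 (0.749%) held a pair, RARB and TRIM31. None of 296 genes that fell held one, and 12 of all 11167 tested genes with a window did (0.107%). The pair of TRIM31, a ubiquitin ligase gene on the minus strand, lies at chr6:30113274-30113290 and reads on the plus strand, opposite to the gene. TRIM31 is named here after its values were seen. It had 4, 8 and 3 fragments with vemurafenib and 13, 24 and 22 with the combination (log2 1.82, SE 0.50, edgeR adjusted p = 0.0447), and the call was lost without any 1 of these 6 samples, with adjusted p from 0.0614 to 0.206. Its pair reads:
TRIM31: AGGTCAcagccAGTTCA
With any spacing from 1 to 5 bases, the share was again 2 of 267 risen genes, beside 59 of 11167 (0.528%). With AGGTCA as the only motif allowed, 0 of the risen, fallen or tested genes held a pair. A match describes letters in a short window and nothing about binding.

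Libraries held between 13510235 and 21534377 counted fragments, and no pair of replicates looked like 1 library deposited again. Chi-square divided by its degrees of freedom ranged from 2.79 to 4.15 among vemurafenib replicates and from 4.25 to 9.28 among combination replicates. Tretinoin replicate 1 stood apart from its group, with 21.4 and 24.4 against 2.69 for the other pair; it is not one of the 6 samples compared, but it entered the shared estimate of the spread. Of the 10 melanocyte lineage markers, MITF, PAX3 and S100B had at least 84 counts in every sample, TYR had at most 1, MLANA 19 and DCT 18. SOX10 had 0 counts in all 12 samples; the cause of this 0 was not tested and it is not read as absence of expression. The summed level of the 10 markers was 61.3 to 64.7 CPM with vemurafenib and 54.1 to 56.1 with the combination. The summed level of the 15 markers of keratinocytes, fibroblasts, leukocytes and endothelial cells was 52.6 to 56.2 and 48.7 to 59.8. These markers were not all absent: in the 6 samples compared KRT14 had 452 to 580 counts, COL1A1 96 to 171 and KRT5 39 to 86, while KRT1 had 0 counts throughout and CDH1 at most 8. Their part in the results was not tested. In bulk RNA, fewer cells of a type and less RNA per cell cannot be told apart.

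In the combination, 380 genes rose and 369 fell relative to vemurafenib alone by edgeR's quasi-likelihood test with a Benjamini-Hochberg adjusted p below 0.05 over all genes, which is 2.27% and 2.2% of the genes tested and 4.47% in all. Genes were called by that threshold, and a called gene is said to have risen or fallen. The rises were the larger. The median log2 fold change was 0.63 among risen and -0.46 among fallen genes, 95 rises against 27 falls exceeded 1 on the log2 scale, and 19 against 1 exceeded 2. Replicates of both groups did not overlap for any of the called genes, as was the case for 24.2% of all genes tested. The median log2 fold change of all genes was 0.0043, close to no change for the typical gene. In the plot of fold change by level, calls spread over the whole range of counts but were fewer among weakly expressed genes. Of the 4185 genes with the lowest mean counts (up to 46.5) 42 rose and 24 fell, with a median standard error (SE) of 0.353, against 127 and 110 of the 4185 with the highest, with a median SE of 0.0757. The number of calls depended on single libraries: it was 482 without vemurafenib replicate 1, 460 without vemurafenib replicate 2, 460 without combination replicate 2, 474 without combination replicate 3 and 1172 without tretinoin replicate 1.

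**Figure D1:**
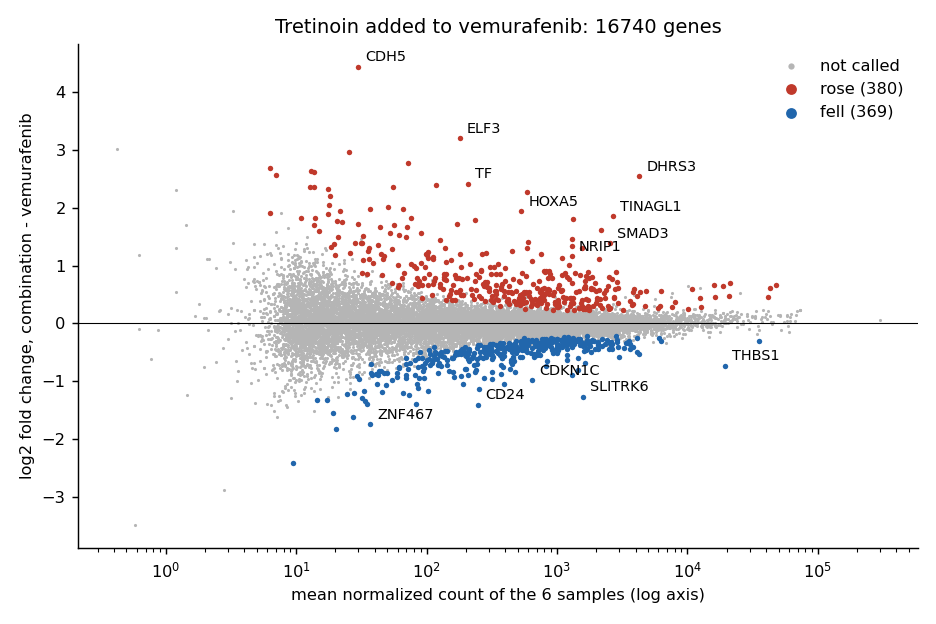
Each point is 1 of 16740 genes, with the mean normalized count of the 6 samples on the horizontal log axis and the log2 fold change of combination over vemurafenib on the vertical axis. Red points are the 380 genes that rose and blue points the 369 that fell; the rises reach 4.43 for CDH5 and the labelled falls -1.74 for ZNF467.

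Of the 6 receptors, RARB and RARA rose and the other 4 did not pass the test, beside 4.47% called among all genes. Levels are given as normalized counts, which are fragments scaled by edgeR's TMM method to a library of average size. RARB (chr3:25174332-25597932, plus strand, GRCh38) stood at 196, 173 and 144 with vemurafenib and at 319, 456 and 421 with the combination. Every combination sample lay above every vemurafenib sample, and the rise was 2.33-fold (log2 1.22, SE 0.15, edgeR adjusted p = 5.26e-05). The DMSO samples stood at 24.5, 23.2 and 25.7 and the tretinoin samples at 62.3, 36.8 and 34.6, all below those given vemurafenib alone. RARA stood at 487, 440 and 468 with vemurafenib and at 514, 630.5 and 594 with the combination. That difference of 1.25-fold was near the limit of the test (log2 0.32, SE 0.09, edgeR adjusted p = 0.0415), and it did not pass in 8 of 18 alternative analyses. Among them, the adjusted p was 0.0796, 0.212 and 0.104 without vemurafenib replicate 1, 2 or 3, 0.238 and 0.153 without combination replicate 2 or 3, 0.0567 without tretinoin replicate 2 and 0.0926 with total-count scaling. Of the exon length of RARA 17.9% lies under exons of other genes, where strand-blind counting cannot place a fragment. The log2 fold change of RARG was -0.12 (SE 0.06) and that of RXRA -0.08 (SE 0.09), with samples of both groups between 1486 and 2146 normalized counts. That of RXRB was 0.11 (SE 0.07). RXRG, at 25.3, 17.4 and 22.8 against 5.97, 18.5 and 18.8, had too few counts for a precise value (log2 -0.55, SE 0.33, edgeR adjusted p = 0.52). Per exon length, the receptors ranked from RARG (RPKM of 22.8 with vemurafenib and 20.9 with the combination) and RXRB (14 and 15.1) over RXRA (8.23 and 7.79), RARA (5.44 and 6.78) and RARB (2.56 and 5.97) to RXRG (0.448 and 0.296).

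Genes that handle retinoids rose where they were called. Of 29 listed genes of retinoid metabolism, transport and binding, 19 had enough counts to test. Of these, 4 rose and none fell (21.1%, beside 4.47% of all genes). DHRS3 (chr1:12567910-12617731, minus strand), which reduces retinaldehyde back to retinol, had the smallest p of all genes in this comparison. It stood at 1291, 1225 and 1234 with vemurafenib and 7351, 7103 and 7359.6 with the combination. The groups were far apart relative to their spread, and the rise was 5.82-fold (log2 2.54, SE 0.09, edgeR adjusted p = 5.35e-12). STRA6, the cell surface receptor that takes up retinol, stood at 684, 691 and 728 against 1638, 2119 and 1994 (log2 1.45, SE 0.09, edgeR adjusted p = 9.71e-09). CRABP2, which carries retinoic acid to its receptors in the nucleus, stood at 25.3, 38.3 and 45.6 against 104, 101 and 101 (log2 1.49, SE 0.19, edgeR adjusted p = 4.96e-05). CYP26B1, an enzyme that degrades retinoic acid, stood at 121, 85.2 and 94.5 against 159, 176 and 186 (log2 0.80, SE 0.15, edgeR adjusted p = 0.00363). For all 3 genes the lowest combination sample exceeded the highest vemurafenib sample. CYP26A1, the better known degrading enzyme, was weakly counted and did not pass (log2 1.20, SE 0.48, edgeR adjusted p = 0.226). The 10 members not tested had at most 11 counts in any of the 6 samples, among them CRABP1, ALDH1A1 and ALDH1A2.

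Of 20 listed corepressors and coactivators of RAR, 1 rose and 3 fell, beside 4.47% called among all genes. NRIP1, a ligand-dependent corepressor and known retinoid target, stood at 866, 801 and 736 with vemurafenib and 1606, 1841 and 1945 with the combination (log2 1.17, SE 0.12, edgeR adjusted p = 6.65e-06). It was thus the coregulator with the one clear rise. PRAME, a tumor antigen known to repress RAR signaling, fell from 2576, 2569.9 and 2732 to 2095, 1955 and 2091 (log2 -0.36, SE 0.07, edgeR adjusted p = 0.00277). The acetyltransferase KAT2B fell by 0.50 on the log2 scale (SE 0.12, edgeR adjusted p = 0.0168) and the coactivator NCOA2 by 0.39 (SE 0.10, edgeR adjusted p = 0.0334). Both calls were lost when any of several single libraries was left out. For KAT2B the adjusted p was 0.103, 0.0573, 0.0803 and 0.0987 without vemurafenib replicates 1 and 2 and combination replicates 2 and 3, in that order. For NCOA2 it was 0.0986, 0.0975 and 0.103 without vemurafenib replicates 1, 2 and 3 and 0.0966 and 0.212 without combination replicates 1 and 2. Called members then numbered 2 without vemurafenib replicate 1, vemurafenib replicate 2 or combination replicate 2.

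**Figure D2:**
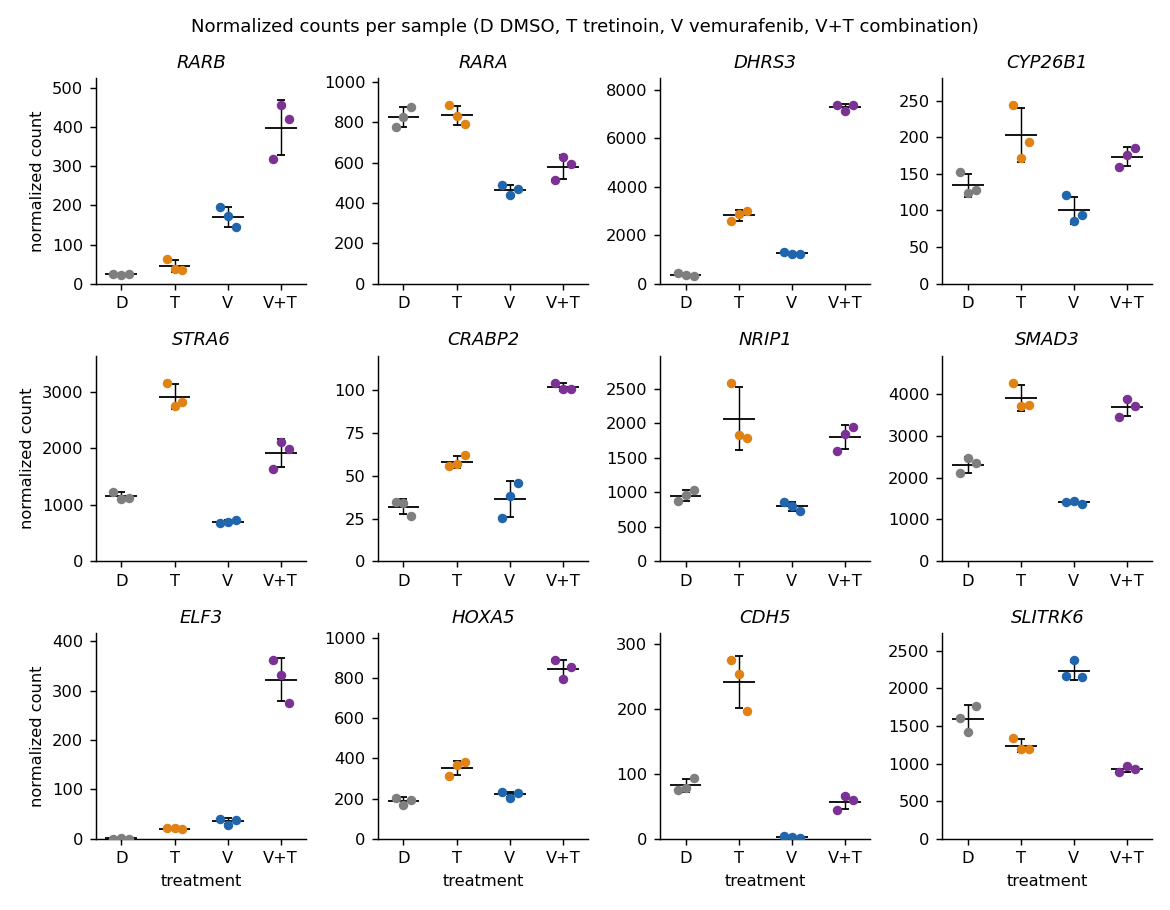
Normalized counts of 12 genes in each of the 12 samples, with 1 panel a gene and an axis from 0; points are samples, the long bar is the mean and the whiskers are 1 SD of 3 replicates. DHRS3 stood between 7103 and 7359.6 in the combination and between 1225 and 1291 with vemurafenib, while SLITRK6 was lowest in the combination.

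The list of retinoid response genes, drawn from known targets in other cells, had the largest share of calls. Of 52 members 44 could be tested, and 19 rose and 2 fell (47.7% called, against 4.47% of all genes), with a median log2 fold change of 0.36. It holds members of the other retinoid lists too, so calls of those members are counted again here. All lists were chosen with earlier results of these data known, so this share is a description and not independent support. ELF3 (chr1:202007945-202017188, plus strand), an epithelial ETS-family transcription factor, stood at 39.4, 28.7 and 38 with vemurafenib and 362, 332 and 275 with the combination. It rose 9.14-fold (log2 3.19, SE 0.18, edgeR adjusted p = 2.45e-09), and 18.5% of its exon length lies under exons of other genes. SMAD3, a transducer of TGF-β signals, stood at 1411, 1448 and 1372 against 3462, 3885 and 3716 (log2 1.39, SE 0.08, edgeR adjusted p = 2.59e-09). TNFAIP2, first known from tumor necrosis factor treatment, stood at 1205, 1212 and 1191 against 2206, 2158 and 2004 (log2 0.82, SE 0.07, edgeR adjusted p = 1.42e-06). The groups of SMAD3 and TNFAIP2 were separated by many times their spread. The 2 fallen members, named after their values were seen, were the kinase gene PRKCA (log2 -0.42, SE 0.08, edgeR adjusted p = 0.00495) and the transcription factor TFAP2C (log2 -0.26, SE 0.07, edgeR adjusted p = 0.0454), whose call was lost without any 1 of the 6 samples compared, with adjusted p from 0.077 to 0.168, and also in the absence of replicate 3 of DMSO (0.0573) or of replicates 2 and 3 of tretinoin (0.0574 and 0.051). A known target that did not pass, also picked with its values in view, was TGM2, a transglutaminase (log2 0.27, SE 0.09, edgeR adjusted p = 0.141).

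In the HOXA and HOXC clusters the genes that rose were neighbours. Of the 39 listed HOX genes 33 could be tested, 10 rose and none fell, and 29 had a positive log2 fold change. With their cofactors, 42 genes were tested, 10 rose and 2 fell (28.6%, beside 4.47% of all genes). HOXA5 (chr7:27141052-27143668, minus strand) stood at 231, 205 and 227 with vemurafenib and 889, 798 and 853 with the combination. That was a 3.83-fold rise (log2 1.94, SE 0.10, edgeR adjusted p = 5.38e-10). Its neighbours HOXA4 (36.6, 27 and 31.5 against 100.4, 92.3 and 81.8; log2 1.53, SE 0.22, edgeR adjusted p = 0.000263) and HOXA3 (log2 1.04, SE 0.18, edgeR adjusted p = 0.00114) also rose. HOXA10, HOXA11 and HOXA13, at the other end of that cluster, lay between -0.15 and 0.08 and did not pass. In the HOXC cluster the calls were HOXC10 to HOXC13. There HOXC13, at 481, 436 and 449.5 against 1034, 1001 and 1089.7, rose by 1.19 (SE 0.08, edgeR adjusted p = 2.12e-08), HOXC12 by 0.78 (SE 0.10, edgeR adjusted p = 0.000108) and HOXC11 by 0.76 (SE 0.13, edgeR adjusted p = 0.000893), while HOXC4 to HOXC9 lay between -0.06 and 0.16. The 4 other risen genes, HOXB2, HOXB8, HOXB9 and HOXC10, named after their values were seen, lay between 0.32 and 0.67. HOXB2 lay apart from HOXB8 and HOXB9, with HOXB3 to HOXB7 not called between them. The call of HOXB2 was lost without any 1 of the 6 samples compared (adjusted p from 0.0584 to 0.161), that of HOXB8 without vemurafenib replicate 2 (0.0548), and that of HOXC10 without vemurafenib replicate 2 or 3 (0.141 and 0.0578) or combination replicate 2 or 3 (0.105 and 0.0978). The 5 tested HOXD genes had edgeR adjusted p of 0.459 or more. The cofactors PBX2 (log2 -0.48, SE 0.09, edgeR adjusted p = 0.00241) and MEIS3 (log2 -0.63, SE 0.14, edgeR adjusted p = 0.0121), named in the same way, fell, and MEIS3 lost its call without vemurafenib replicate 1 (0.101) or combination replicate 3 (0.0717). Of the exon length of HOXA4, 47.3% lies under exons of other genes, where union counting drops a fragment.

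**Figure D3:**
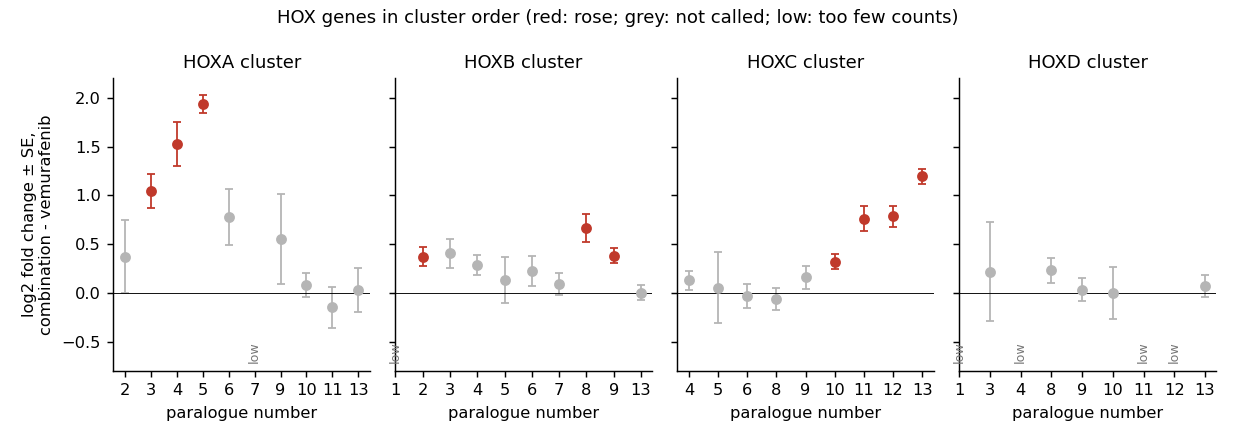
Log2 fold change of combination over vemurafenib for HOX genes ordered by paralogue number in the 4 clusters, with error bars of 1 SE; red genes rose, grey genes were not called and "low" marks genes with too few counts. HOXA3 to HOXA5 and HOXC10 to HOXC13 are red, and all 5 tested HOXD genes are grey.

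Some targets of the partners of RXR were called as well. Of 24 listed LXR and PPAR genes 22 could be tested, and 6 rose and 1 fell (31.8%, beside 4.47% of all genes). The other 15 were not called. Among these, named after their values were seen, were ABCG1 (log2 0.16), SREBF1 (0.14), LPCAT3 (0.35), SCD (0.30) and CPT1A (0.12), with edgeR adjusted p between 0.0578 and 0.842. ANGPTL4, a secreted inhibitor of lipoprotein lipase and PPAR target, stood at 5.63, 18.3 and 21.7 with vemurafenib and 40.8, 73.9 and 60.5 with the combination (log2 1.97, SE 0.31, edgeR adjusted p = 0.000503). In DMSO it stood at 291, 341 and 348, so the combination samples remained below every DMSO sample. PDK4, which restrains pyruvate oxidation, rose from 254, 238 and 205 to 443, 473 and 512 (log2 1.03, SE 0.12, edgeR adjusted p = 1.79e-05). PPARG itself rose from 763, 627 and 646 to 1043, 1222 and 1233 (log2 0.78, SE 0.09, edgeR adjusted p = 1.84e-05). Smaller rises were those of the cholesterol exporter ABCA1 (log2 0.59, SE 0.13, edgeR adjusted p = 0.00974) and the lipid droplet protein PLIN2 (log2 0.31, SE 0.06, edgeR adjusted p = 0.00693). MYLIP, the ligase that marks the LDL receptor for degradation and is induced by LXR, fell from 245, 249 and 271 to 155, 165 and 126 (log2 -0.78, SE 0.12, edgeR adjusted p = 0.00064). The remaining call, CREB3L3, a transcription factor of lipid metabolism named after its values were seen, rose by 0.78 (SE 0.20, edgeR adjusted p = 0.0312), and its call was lost without any 1 of the 6 samples compared (adjusted p from 0.0685 to 0.133). The calls of ABCA1 and PLIN2 were lost with single libraries left out: for ABCA1 the adjusted p was 0.0509 without vemurafenib replicate 2 and 0.0738 without combination replicate 3, and for PLIN2 0.052, 0.0612 and 0.059 without vemurafenib replicates 1 and 2 and combination replicate 3. Without vemurafenib replicate 2, or without combination replicate 3, 4 members were called.

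Among genes with a mean of at least 50 normalized counts in the higher group, the largest rises included genes outside the retinoid lists. CDH5 (chr16:66366622-66404786, plus strand), which encodes VE-cadherin of endothelial junctions, had 4, 3 and 1 fragments in the vemurafenib samples and 45, 78 and 74 in the combination. The ratio after scaling was 22.6, with a 95% interval of 11.2 to 53.1 that covers counting error only (fitted log2 4.43, SE 0.36, edgeR adjusted p = 3.49e-07). Its normalized counts in the combination (44.7 to 65.5) were still below those in DMSO (75.7 to 93.4). The other endothelial markers were not called, with a log2 fold change of 0.18 for PECAM1 (edgeR adjusted p = 0.933) and -0.09 for VWF (edgeR adjusted p = 0.961). Of the 15 markers of other cell types 10 could be tested; CDH5 rose and the fibroblast collagen gene COL1A1 fell (log2 -0.68, SE 0.15, edgeR adjusted p = 0.0112; adjusted p = 0.0635 without vemurafenib replicate 1 and 0.0589 without combination replicate 3, when CDH5 was the only marker called).

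TF, the iron carrier transferrin, stood at 66.6, 60.9 and 68.4 with vemurafenib and 359, 348 and 335 with the combination (log2 2.41, SE 0.13, edgeR adjusted p = 9.5e-10). TINAGL1, a basement membrane glycoprotein, stood at 1145, 1203 and 1168 against 4244, 4270.5 and 4131 (log2 1.85, SE 0.07, edgeR adjusted p = 1.65e-11). FAM78B stood at 240.3, 194 and 168 against 889.9, 1007 and 1017 (log2 2.27, SE 0.11, edgeR adjusted p = 4.76e-10). In each of these genes the combination samples lay close together and several times above the vemurafenib samples. FGF12 (2.38), a member of the fibroblast growth factor family that acts inside the cell, GDNF (2.0), a neurotrophic factor, and GPRC5B (1.78), an orphan receptor related to the retinoid-induced GPRC5A, also rose, as did the immune adaptor FYB1 (1.71) and the non-coding LINC02119 (1.98), all on the log2 scale with edgeR adjusted p between 2.12e-08 and 2.41e-05. LOXL4, a lysyl oxidase of the extracellular matrix, stood at 1034, 1107 and 1094 against 3328, 3473 and 3058 (log2 1.61, SE 0.08, edgeR adjusted p = 4.14e-10). TF shares a near-identical stretch of sequence with TMBIM4, and 26.7% of the exon length of GPRC5B lies under another gene.

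The largest falls, by the same minimum of counts, were smaller and included receptors and transcription factors. SLITRK6 (chr13:85792787-85806683, minus strand), a neuronal transmembrane protein, stood at 2163, 2374 and 2158 with vemurafenib and 889, 975 and 931 with the combination (log2 -1.26, SE 0.08, edgeR adjusted p = 2.12e-08). FZD8, a Wnt receptor, fell from 514, 517 and 554 to 247, 264 and 256 (log2 -1.05, SE 0.08, edgeR adjusted p = 1.79e-07). DACT1, which modulates Wnt signaling, fell from 120, 114 and 127 to 36.8, 51.2 and 49.1 (log2 -1.38, SE 0.16, edgeR adjusted p = 1.79e-05). Replicates of these genes differed by far less than the groups did. CD24, a cell surface glycoprotein, fell from 338, 353 and 381 to 157, 137 and 113 (log2 -1.40, SE 0.14, edgeR adjusted p = 5.85e-06). CAMKK1, a calcium-dependent kinase, fell from 339, 340 and 358 to 160, 155 and 160 (log2 -1.12, SE 0.10, edgeR adjusted p = 1.61e-06). For CD24, CAMKK1 and the zinc finger gene ZNF467 (63.8, 52.2 and 55.4 against 19.9, 18.5 and 13.1, log2 -1.74, SE 0.30, edgeR adjusted p = 0.00162), the combination samples remained above every DMSO sample. The transcription factor SOX6 (log2 -1.23, SE 0.23), the coregulator MN1 (-1.38, SE 0.25), the muscarinic receptor CHRM1 (-1.20, SE 0.18), the lysophosphatidic acid receptor LPAR5 (-1.18, SE 0.23), the chemokine CX3CL1 (-1.11, SE 0.19), the protease CTSV (-1.04, SE 0.16) and the keratin KRT16 (-1.16, SE 0.21) fell with edgeR adjusted p between 0.000328 and 0.00373. TMEM271 was the weakest of the 15 largest falls (edgeR adjusted p = 0.0122, and 0.101, 0.0596 and 0.0858 without vemurafenib replicate 2, combination replicate 2 or combination replicate 3). CD24 and KRT16 share near-identical sequence with a pseudogene each, so part of their fragments may be counted elsewhere.

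Genes that report output of the ERK pathway, the pathway vemurafenib blocks, were called in the upward direction where they were called. Of 27 such genes 4 rose and none fell (14.8%, beside 4.47% of all genes), and the feedback genes DUSP4, DUSP6, SPRY2 and SPRY4 lay between -0.10 and 0.28 without passing the test. EPHA2, an ephrin receptor kinase, stood at 1018, 1128 and 1092 with vemurafenib and 1789.7, 2053 and 1963 with the combination (log2 0.84, SE 0.09, edgeR adjusted p = 5.61e-06). EGR3, an immediate early transcription factor, stood at 32.8, 28.7 and 40.2 against 115, 122 and 121 (log2 1.83, SE 0.18, edgeR adjusted p = 3.76e-06). PHLDA1, a pro-apoptotic ERK target, stood at 685, 671 and 659 against 911, 969 and 1002 (log2 0.52, SE 0.08, edgeR adjusted p = 0.000752). In DMSO these 3 genes stood at 8158 to 10108, 200.2 to 240.3 and 2795 to 3284, above every combination sample. The oncogene MYC rose from 77.9, 78.2 and 78.2 to 102, 113 and 102 (log2 0.44, SE 0.11, edgeR adjusted p = 0.0267) against 963 to 1068 in DMSO. Its call was lost in 8 of 18 alternative analyses, with an adjusted p of 0.0981, 0.1 and 0.0787 without vemurafenib replicate 1, 2 or 3 and 0.143 and 0.0602 without combination replicate 2 or 3.

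Genes linked to the mesenchymal-like, drug-tolerant state of melanoma moved in both directions. Of 35 tested members 4 rose and 4 fell (22.9%, beside 4.47% of all genes), with a median log2 fold change of -0.09. CTGF, a matrix-associated target of YAP, rose from 784, 872 and 940 to 1344, 1605 and 1558 (log2 0.80, SE 0.09, edgeR adjusted p = 1.97e-05). CYR61, of the same protein family and also a YAP target, fell from 1515, 1590 and 1964 to 866, 936 and 931 (log2 -0.89, SE 0.12, edgeR adjusted p = 0.000114). THBS1, thrombospondin, fell from 23325, 25360 and 23394 to 12396, 16112 and 14998 (log2 -0.73, SE 0.12, edgeR adjusted p = 0.00132). CTGF thus rose while its relative CYR61 fell, with no overlap of replicates in either gene. The collagen crosslinker LOXL2 rose (log2 0.46, SE 0.07, edgeR adjusted p = 0.000501), as did the transcription factor JUN (log2 0.56, SE 0.12, edgeR adjusted p = 0.00626; 0.0575 without vemurafenib replicate 1). The receptor kinase ERBB2 fell (log2 -0.28, SE 0.06, edgeR adjusted p = 0.0143; 0.0953 without vemurafenib replicate 2 and 0.0955 without combination replicate 3). The ectoenzyme NT5E (0.30) and the receptor PDGFRB (-0.35), named after their values were seen, were the other calls. Both calls were lost without vemurafenib replicate 1 (adjusted p 0.0745 and 0.0913) or 2 (0.226 and 0.096) and combination replicate 2 (0.167 and 0.0609). That of NT5E was also lost without vemurafenib replicate 3 (0.119), combination replicate 3 (0.191), DMSO replicate 2 (0.0528) or tretinoin replicates 2 and 3 (0.063 and 0.0522), and that of PDGFRB without combination replicate 1 (0.119). Called members numbered 5 without vemurafenib replicate 1 or without vemurafenib replicate 2.

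Among 47 tested genes of matrix and adhesion, 5 rose and 5 fell (21.3%, beside 4.47% of all genes). Without combination replicate 3 the number called was 6. The integrin subunits ITGB3 and ITGA4 rose, from 169, 165 and 148 to 323, 390 and 398 (log2 1.21, SE 0.11, edgeR adjusted p = 2.5e-06) and from 1020.2, 1019 and 875 to 1753, 1838 and 1722 (log2 0.86, SE 0.08, edgeR adjusted p = 3.56e-06). The protease inhibitor TIMP3 rose by 0.56 (SE 0.09, edgeR adjusted p = 0.000534). The adhesion molecule L1CAM fell from 4861, 5322 and 4911 to 3379.6, 3560.3 and 3555 (log2 -0.52, SE 0.09, edgeR adjusted p = 0.000862) and the collagen chain COL5A2 by 0.45 (SE 0.07, edgeR adjusted p = 0.000489). Other calls, named after their values were seen, included LAMA4 (0.30), LAMB2 (-0.26), MMP14 (-0.41) and COL1A1. LAMB2 lost its call without any 1 of the 6 samples compared (adjusted p from 0.0524 to 0.273) and without DMSO replicate 3 (0.0679) or tretinoin replicates 2 and 3 (0.067 and 0.0545). LAMA4 lost it without any vemurafenib replicate or combination replicates 2 and 3 (0.0565 to 0.141), and MMP14 without combination replicate 3 (0.054). Of the exon length of ITGB3, 51.6% lies under exons of another gene.

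At 8 h 1 gene was called in each of the cell cycle and apoptosis lists. Whether these shares differ from that of all genes was not tested. Of 44 cell cycle genes 1 fell and none rose (2.27% of them, beside 4.47% of all genes). That gene was CDKN1C, the inhibitor p57, at 826, 862 and 847 with vemurafenib and 528, 381 and 384 with the combination (log2 -0.98, SE 0.11, edgeR adjusted p = 1.17e-05), against 177 to 205 in DMSO. The proliferation markers MKI67, PCNA and TOP2A lay between -0.01 and 0.08 and were not called. Of 38 apoptosis genes 1 rose (2.63%), and without DMSO replicate 2 or tretinoin replicate 1 the number was 2. BCL2L11, which encodes the death protein BIM, stood at 374, 371 and 344 against 513, 532 and 535 (log2 0.54, SE 0.08, edgeR adjusted p = 0.000531), against 224 to 234 in DMSO. BCL2 (-0.38, SE 0.13), MCL1 (0.18, SE 0.07) and BBC3 (0.05, SE 0.11) did not pass the test. Without tretinoin replicate 1, 3 cell cycle genes were called.

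In the PI3K, AKT and MTOR list 3 of 31 genes rose and 1 fell (12.9%, beside 4.47% of all genes). DDIT4, an inhibitor of MTOR signaling, stood at 1542, 1443 and 1308 against 2253, 2202 and 2102 (log2 0.61, SE 0.07, edgeR adjusted p = 2.1e-05), and SESN3, a sestrin that also restrains MTOR, rose by 0.57 (SE 0.10, edgeR adjusted p = 0.00184). The regulatory subunit PIK3R1 rose by 0.45 (SE 0.07, edgeR adjusted p = 0.00108) while the catalytic subunit PIK3CD fell from 267, 262 and 251 to 168, 168 and 162 (log2 -0.65, SE 0.11, edgeR adjusted p = 0.00151). Of 40 interferon response and antigen presentation genes 3 rose and none fell (7.5%, beside 4.47% of all genes). IRF1, a transcription factor and known retinoid target, stood at 210, 229.5 and 233 against 424, 413 and 376 (log2 0.85, SE 0.08, edgeR adjusted p = 3.86e-06). IFI35 (0.44) and IFIT2 (0.73) passed narrowly, with adjusted p of 0.0104 and 0.0174 in edgeR. Without combination replicate 1 these were 0.0551 and 0.101 and IRF1 was the only member called. IFI35 was also lost without vemurafenib replicate 2 (0.0925) or combination replicate 2 (0.0682), and IFIT2 without vemurafenib replicate 1 (0.127) or combination replicate 3 (0.0838); without tretinoin replicate 1 the list had 5 calls. Of 26 melanocyte lineage and pigment genes 15 could be tested and none was called by edgeR or DESeq2, although 2 had an unadjusted p below 0.05 in edgeR. A fit of only the 6 samples compared called 1, MITF (log2 -0.24, adjusted p = 0.0427). MITF, the lineage's master transcription factor, stood at 598, 572 and 585 against 482, 484 and 515 without passing (log2 -0.24, SE 0.10, edgeR adjusted p = 0.221), and TFAP2A at 269, 256 and 261 against 229, 213 and 204 (log2 -0.28, SE 0.09, edgeR adjusted p = 0.0962).

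**Figure D4:**
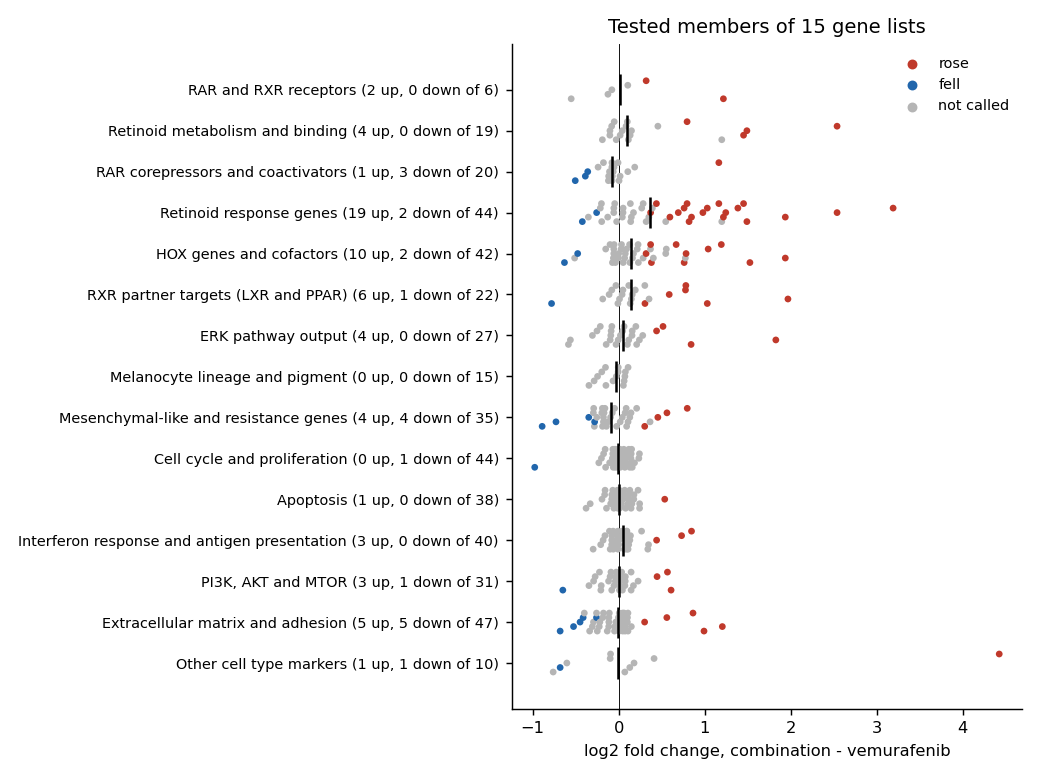
Each point is a tested member of 1 of 15 gene lists, placed by its log2 fold change of combination over vemurafenib, and the black bar is the list's median. Red members rose and blue members fell; retinoid response genes have 19 red and 2 blue points with a median of 0.36, whereas the median of the 44 cell cycle genes is -0.0021.

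The same retinoid was also given without the BRAF inhibitor, which allows its effect to be compared between both states, in samples that are not shared. Tretinoin alone raised 583 genes (3.48%) and lowered 368 (2.2%) relative to DMSO, 951 in all (5.68%). Of the 380 genes that rose in the combination, 181 (47.6%) also rose with tretinoin alone, 5 fell and 194 were not called. These 181 are 31.0% of the genes raised by tretinoin alone. Of the 369 genes that fell, 61 (16.5%) also fell with tretinoin alone, which is 16.6% of the genes it lowered, 5 rose and 303 were not called. Across the 749 genes called in the combination, the Pearson correlation of the fold changes in both comparisons, on the log2 scale and over genes that do not count as replicates, was 0.742 (Spearman 0.72), and across all 16740 genes it was 0.264 (Spearman 0.142). These counts for tretinoin alone rest on a group with 1 library apart, and total-count scaling gave 932 calls of which 81.3% were rises, against 61.3% here. Without DMSO replicate 2 they were 379 and without tretinoin replicate 2 they were 619.

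A gene called in 1 state and not in the other need not differ between them, so the difference of the log2 fold changes was tested itself. By this interaction, 64 genes (0.382%) responded more positively with vemurafenib present and 71 (0.424%) more negatively, 135 in all (0.806%). That total was 60 without DMSO replicate 2, 265 without tretinoin replicate 1, 71 and 64 without vemurafenib replicates 1 and 2, and 88, 65 and 88 without combination replicates 1, 2 and 3. Of the 64, 47 rose in the combination and 22 fell with tretinoin alone. Of the 71, 28 fell in the combination and 46 rose with tretinoin alone. No interaction call was made for 333 of the 380 risen and 341 of the 369 fallen genes. For DHRS3 (2.54 with and 2.91 without vemurafenib, edgeR adjusted p of the difference 0.18), STRA6 (1.45 and 1.34, 0.684), NRIP1 (1.17 and 1.12, 0.916), ITGA4 (0.86 and 0.90, 0.924) and RARB (1.22 and 0.82, 0.579) no difference was detected. ELF3 had 0 to 2.44 normalized counts in DMSO, so its value without vemurafenib (4.59) is imprecise.

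The 8 genes with the smallest p of the difference follow. IFFO2, an intermediate filament family member, rose from 598, 549 and 610 to 1991, 2058 and 2103 with vemurafenib present (log2 1.81) and from 829, 945 and 960 to 1750, 1435 and 1489 without it (0.77), a difference of 1.04 (SE 0.12, edgeR adjusted p = 0.00045). FOXC1, a forkhead transcription factor of mesenchyme, rose from 702, 692 and 663 to 1454, 1504 and 1537 (1.13) and from 625, 585 and 564 to 759, 679 and 713 (0.28), a difference of 0.85 (SE 0.10, edgeR adjusted p = 0.000467). In both genes the response had 1 direction and another size. PRRX1, a homeobox transcription factor of mesenchyme, changed direction, from 1059.6, 997 and 1020 to 576, 619 and 662 with vemurafenib present (-0.73) and from 1409, 1059.5 and 1222 to 1889, 1738 and 1619 without it (0.51), a difference of -1.23 (SE 0.13, edgeR adjusted p = 0.00045). ADAM19, a membrane metalloprotease, rose where vemurafenib was absent, from 276, 237 and 307 to 756, 629 and 602 (1.27), and stood at 180, 180 and 177 against 117, 118 and 166 in its presence (-0.41, edgeR adjusted p = 0.141), a difference of -1.68 (SE 0.19, edgeR adjusted p = 0.00045).

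CTGF rose by 0.80 with vemurafenib present, against -0.24 without it that did not pass, and EPHA2 rose by 0.84, against -0.02. RIPK4, a kinase of epithelial differentiation, rose by 0.78, against -0.34 without vemurafenib that did not pass (edgeR adjusted p = 0.0551). SLITRK6 fell by 1.26 with vemurafenib present and by 0.37 without it. The differences were 1.04 (SE 0.13), 0.86 (SE 0.12), 1.12 (SE 0.15) and -0.89 (SE 0.12), with edgeR adjusted p of 0.000854, 0.00238, 0.00238 and 0.00156. HOXA5 rose in both states but by more with vemurafenib present (1.94 against 0.91, difference 1.03, SE 0.14, edgeR adjusted p = 0.00238), as did HOXC13 (1.19 against 0.40, difference 0.80, SE 0.12, edgeR adjusted p = 0.00333). HOXB2, named after its values were seen, fell with tretinoin alone (-0.34) and rose with vemurafenib present (0.37), a difference of 0.72 (SE 0.13, edgeR adjusted p = 0.0122).

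**Figure D5:**
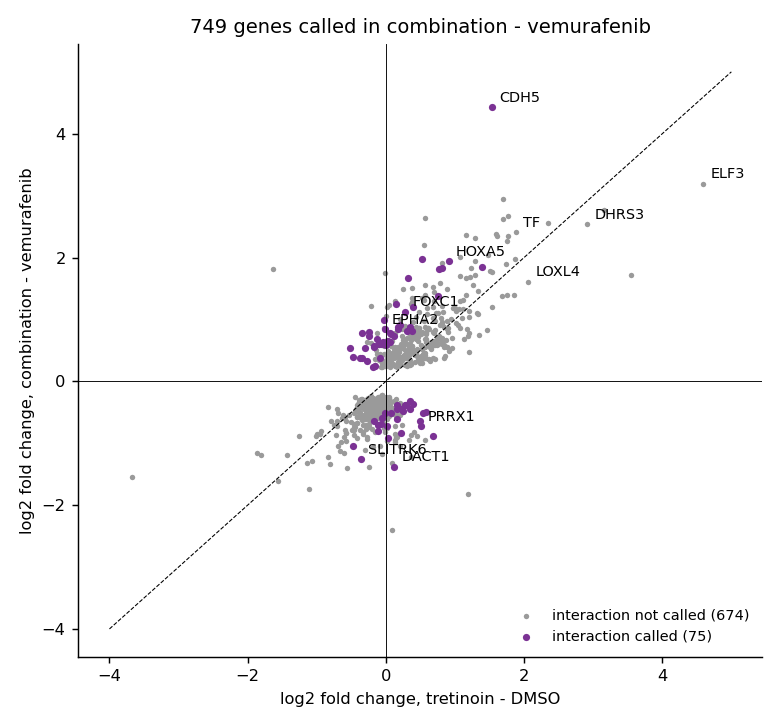
The 749 genes called between combination and vemurafenib, with the log2 fold change of tretinoin over DMSO on the horizontal axis and of combination over vemurafenib on the vertical axis; purple genes passed the interaction test and the dashed line marks equal change. FOXC1 and CDH5 lie above the line among the rises, and PRRX1 lies to the right of 0 although it fell in the combination.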

How the data were processed

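Polyadenylated RNA was sequenced in 150-base paired reads. The authors aligned them with STAR 2.5.3a to GRCh38.p10 and deposited raw counts per GENCODE 27 gene (union mode, strand ignored, per the study's methods), not normalized. Of 58347 genes, 58084 were matched to GENCODE 29 for symbols and positions. The comparison, its members and the gene lists were chosen with earlier results of these data known, although samples entered by label alone.

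Counts were filtered with filterByExpr and TMM-normalized, and a quasi-likelihood model (edgeR 4.0.16, R 4.3.3) with a term per treatment was fitted to all 12 samples. The SE is the size of the log2 fold change over the square root of F. The script was tested on simulated data. Named genes were the 15 largest rises and falls with separated replicates and a mean of at least 50 normalized counts in the higher group, all receptors, up to 6 called members per list by p (2 members where none was called), the 8 smallest interaction p at that minimum and the 5 smallest p of combination against vemurafenib; TRIM31 and genes so marked were added, and some genes are not reported here. Genes were called near-identical from 150 shared bases at 98% identity. Alternatives were DESeq2 1.42.0, other scalings, no filter, only the 6 samples compared, the replicate number as a block, and each sample left out. Depth limits weakly counted genes, whose SE is larger.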

Additional observations from a re-analysis of the deposited data

Results flagged for a closer look

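In 22 of 88 named genes the effect of tretinoin differed between cells with and without vemurafenib by edgeR's test of the interaction. The share over all genes tested was 0.806%. The 88 are TRIM31 and the genes named by the rule. Because 8 of the 22 were named for their small interaction p, the count is partly set by that rule. HOXB2, described above but named after its values were seen, also passed and is not among the 22. The test takes the log2 fold change of tretinoin over DMSO from that of combination over vemurafenib. Its adjusted p in the 22 genes lay between 0.00045 and 0.0451. The values below are these differences, and their causes were not tested. In addition to the 10 described above (IFFO2 1.04, FOXC1 0.85, PRRX1 -1.23, ADAM19 -1.68, CTGF 1.04, EPHA2 0.86, RIPK4 1.12, SLITRK6 -0.89, HOXA5 1.03 and HOXC13 0.80), 9 genes responded more positively with vemurafenib present. CDH5 differed by 2.88 (SE 0.45), and its count in the vemurafenib samples was 1 to 4. LINC02119 differed by 1.45 (SE 0.28), EGR3 by 1.01 (SE 0.22), JUN by 0.74 (SE 0.16), IRF1 by 0.67 (SE 0.12) and DDIT4 by 0.64 (SE 0.10). SMAD3 differed by 0.63 (SE 0.11), TNFAIP2 by 0.51 (SE 0.10) and TINAGL1 by 0.45 (SE 0.10). These 3 rose in both states, as did CDH5 and EGR3. In the other direction, DACT1 differed by -1.50 (SE 0.23), NCOA2 by -0.67 (SE 0.15) and FZD8 by -0.57 (SE 0.11). For DDIT4, DACT1, JUN, NCOA2, IRF1 and LINC02119, tretinoin alone gave no call, with log2 fold changes of -0.03, 0.12, -0.17, 0.28, 0.18 and 0.52. Tretinoin replicate 1, which stood apart from its group, enters each of these differences. Whether each gene kept its interaction call in the alternative analyses was not examined. NCOA2, JUN and EGR3 lay nearest the limit, with edgeR adjusted p of 0.0451, 0.0427 and 0.041.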

How the results depend on the processing

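Of 81 called genes, TRIM31 and those named by the rule, 68 were called in all 18 alternatives, and none of the 81 reversed. The 749 calls between combination and vemurafenib became 1269 (584 up, 685 down) when only the 6 samples compared were fitted, and 460 to 1172 with 1 sample left out; DESeq2 gave 842 and no filter 743. With total-count scaling 322 rose and 434 fell, so rises were 42.6% in place of 50.7%. For tretinoin against DMSO the 951 calls became 1540 with no filter, 305 with only its 6 samples, and 379 to 1367 with 1 sample left out. The 135 interaction calls became 276 with DESeq2, 610 with no filter, 75 with the replicate number as a block, and 60 to 265 with 1 sample left out; with total-count scaling 36 were positive and 132 negative. The share of risen genes with a motif pair became 0.0% with AGGTCA alone. Deviations of same-numbered samples from their group means were not alike (correlations of -0.143 to 0.087 over 18 pairs), so the numbers were not taken as pairs, and the replicate block gave 608 calls in place of 749 and ended that of RARA (adjusted p = 0.0911). Lists moved too: with only the 6 samples compared, matrix and adhesion had 17 calls, and without combination replicate 3 it had 6. TRIM31 lost its call in 10 alternatives, with an adjusted p of up to 0.206. The causes were not tested. Genes with few counts had larger SE.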

Other observations

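Few long non-coding genes fell, in a comparison that was not matched for level. Of the 4185 tested genes of any type with the lowest mean counts, 42 rose and 24 fell. Of 1406 tested lincRNA and antisense genes, 25 rose (1.78%) and 2 fell (0.142%) in the combination relative to vemurafenib by edgeR's test, beside 2.27% and 2.2% of all genes, and 89.5% of risen against 99.2% of fallen genes were protein coding, beside 81.0% of all genes tested. Of the 25 risen genes 9 (36.0%) lay within 10 kb of a protein-coding gene that rose, against 51 of all 1406 (3.63%); this is a description with no test. The pairs, named after their values were seen, include AC254633.1 beside DHRS3 (log2 2.78, SE 0.24), AC114488.1 beside TINAGL1 (2.36, SE 0.52), GDNF-AS1 beside GDNF (1.69, SE 0.36), RARA-AS1 beside RARA (1.4, SE 0.28) and HOXC13-AS beside HOXC13 (1.13, SE 0.16). Because counting ignored the strand, fragments of a gene and of an overlapping antisense partner cannot be told apart in these data. Union counting drops the fragments that lie in exons shared by both. The abundant nuclear RNAs MALAT1 (7461, 8661 and 9886 normalized counts with vemurafenib, 13648, 12322 and 13288 with the combination, log2 0.59, SE 0.13) and NEAT1 (1027, 1202 and 1192 against 1976, 1556 and 1477, log2 0.55, SE 0.14) lay near no risen coding gene, with edgeR adjusted p of 0.00829 and 0.0299.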
